A study of Mus musculus with 8 samples.

Results

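CD8 and CD4 T cells recovered from allogeneic cultures under costimulation blockade were compared with each other, using 4 of the 8 arrays of the study. The members are all 45037 probe sets of the array other than its controls, and each difference is the mean of 2 CD8 arrays minus the mean of 2 CD4 arrays. Splenocytes of C57BL/6 mice, labelled with the dye CFSE, responded at 200000 per well to 800000 FVB/N splenocytes that had been irradiated with 30 Gy. All cultures ran for 5 days, and 300000 sorted CFSE-positive CD8 or CD4 cells gave the RNA of an extraction. The groups were CD8 cells with blockade, CD4 cells with blockade, CD8 cells left untreated and CD4 cells left untreated, with 2 arrays each. Blockade was anti-CD40L, anti-LFA-1 and CTLA4-Ig at 50 µg each, and the untreated cultures received none of these. The labels name 4 mice per group, but whether the paired arrays had separate cultures or mice behind them is not said, and the p-values thus measure the spread between arrays, which may be technical. One label describes the sorting antibodies as directed against human proteins, while these were mouse cells, and the groups are taken here as their titles name them. A sort on CFSE and on CD4 or CD8 takes labelled responders whether or not they divided.

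In a mixed lymphocyte reaction, T cells recognise foreign major histocompatibility molecules and need a further signal from costimulatory receptors to expand and become effectors. CTLA4-Ig occupies CD80 and CD86, the ligands of CD28, anti-CD40L blocks the help that activated CD4 cells give to antigen-presenting cells, and anti-LFA-1 blocks adhesion. CD8 cells become killers and CD4 cells mainly make cytokines, among them interleukin-2, and the 2 subsets are known to differ in how much costimulation they need. Interferons act on both through JAK kinases, and IRF transcription factors bind a GAAA repeat in the promoters of interferon target genes.

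Gene names could be given only to 289 genes of the authors' deposited list. All probe sets of that list differed between the blockade and the untreated arrays by a log2 value of at least 1.00, so the named genes were selected on these arrays for a change with treatment, not for a difference between CD8 and CD4 cells. What this selection does to the share of named genes called between CD8 and CD4 cells was not tested. Cd8a, Cd8b1, Cd4, Zbtb7b and Foxp3 were not among them, and the lists of CD4 lineage, NK cell and erythroid genes had no named member. No check of the sort against its defining markers was therefore possible by name. The values are log2 relative to the median of the 8 arrays (the base of the logarithm is assumed), so they show how arrays differ and not how strongly a gene was expressed. In bulk RNA, fewer cells of a type and less RNA per cell cannot be told apart.

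Most of the named genes that were higher in CD8 cells are known to be induced by interferon, and the promoter stretches below show an element that several of them share and that a gene without a called difference, Ifit1, holds too. Each is the 160 bases before the gene's start, read 5′ to 3′ on the gene's own strand from RefSeq (GRCm38.p6), with matches to the interferon-stimulated response core in capitals. They lie at chr19:34583369-34583528 (plus strand), chr16:10785537-10785696 (minus strand), chr3:142620503-142620662 (plus strand), chr3:142559884-142560043 (plus strand) and chr19:34640729-34640888 (plus strand).
Ifit3: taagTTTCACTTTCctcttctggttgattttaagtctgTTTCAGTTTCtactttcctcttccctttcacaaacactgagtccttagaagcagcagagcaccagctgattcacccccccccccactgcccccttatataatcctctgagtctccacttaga
Socs1: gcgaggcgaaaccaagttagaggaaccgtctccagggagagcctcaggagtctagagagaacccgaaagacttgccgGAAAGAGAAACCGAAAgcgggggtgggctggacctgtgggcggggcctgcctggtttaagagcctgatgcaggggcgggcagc
Gbp2: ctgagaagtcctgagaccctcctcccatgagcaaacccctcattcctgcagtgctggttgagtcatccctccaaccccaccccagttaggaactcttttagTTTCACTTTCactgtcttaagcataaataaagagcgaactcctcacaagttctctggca
Gbp3: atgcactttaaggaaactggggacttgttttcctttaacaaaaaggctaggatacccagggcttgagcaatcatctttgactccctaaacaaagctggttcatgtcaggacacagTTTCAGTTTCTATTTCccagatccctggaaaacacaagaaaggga
Ifit1: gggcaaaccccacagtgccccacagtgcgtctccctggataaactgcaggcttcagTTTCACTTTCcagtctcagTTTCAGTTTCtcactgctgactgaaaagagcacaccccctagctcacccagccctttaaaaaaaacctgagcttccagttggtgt
The core was searched as GAAANNGAAA and, for the other strand, TTTCNNTTTC. Ifit3 held 2 matches whose first bases lay 156 and 122 bases before its start, Socs1 2 overlapping matches at 83 and 77, Gbp2 1 match at 59, Gbp3 2 overlapping matches at 45 and 39, and Ifit1 2 at 104 and 85. A match is a description of the letters and not evidence that a factor binds there.

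Among all probe sets, 988 of 45037 (2.19%) passed an adjusted p of 0.05 in limma's moderated test with Benjamini-Hochberg adjustment. Of these, 486 (1.08%) were higher and 502 (1.11%) lower in CD8 than in CD4 cells under blockade. The difference was at least 2-fold, a log2 value of 1, for 220 higher and 188 lower probe sets, at least log2 2 for 67 and 42, and at least log2 4 for 16 and 2. 971 of the 988 have no gene name here. The CD8 arrays lay above the CD4 arrays without overlap for 20.5% of all probe sets and below them for 19.9%. An exact permutation test of 2 against 2 arrays cannot go below p = 0.333, so all calls rest on the fit's shared estimate of spread.

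The array of CD8 blockade replicate 1 stood apart in its controls. Its hybridization spike-ins had a median of 0.91 and its poly-A spike-ins one of 0.79, while the other 3 blockade arrays lay between -0.03 and 0.12 and between -0.18 and 0.10. CD4 untreated replicate 2 had the lowest such medians, -0.23 and -0.44. The count of 988 fell when any 1 of the 4 blockade arrays was left out. It fell least without CD8 blockade replicate 2, more without CD8 blockade replicate 1 or either CD4 blockade array, and most without both arrays with unusual spike-ins. It was 632 when only the 4 blockade arrays were fitted. The difference between 5′ and 3′ Gapdh probe sets, a measure of RNA quality, was -0.11 and -0.06 in CD8 blockade, against 0.01 and -0.05 in CD4 blockade. For beta-actin it was -0.04 and 0.05 in CD8 blockade, against -0.02 and -0.004 in CD4 blockade. The part of spike-ins and RNA quality in the called differences was not tested beyond these fits.

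The largest differences belonged to probe sets without a name. 1444078_at had log2 values of 3.41 and 3.27 in CD8 blockade, against -4.57 and -5.03 in CD4 blockade, a difference of 8.14 ± 0.15 (SE). 1451673_at had 3.11 and 3.39 in CD8 blockade, against -4.35 and -4.33 in CD4 blockade, a difference of 7.59 ± 0.16. Without treatment both differences had the same direction and were smaller, 6.68 and 7.01. On the CD4 side, 1417928_at had -2.02 and -2.21 in CD8 blockade, against 1.90 and 2.11 in CD4 blockade, a difference of -4.12 ± 0.13. 1419696_at differed by -4.03 ± 0.17 under blockade and by -3.51 without treatment. In all 4 the CD8 and CD4 arrays lay far apart with and without blockade, and no gene can be put to them here.

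Of the 289 named genes, 14 (4.84%) were called, against 2.19% of all probe sets: 11 higher and 3 lower in CD8 cells under blockade. The higher ones were Ifit3, Socs1, Ifit1bl1, Tmem140, Gbp2, Parp12, Gbp2b, Gbp6, Gbp3, Tsc22d1 and AI451557, and the lower ones were Socs2, Serpina3g and Treml2. The median over all named genes was -0.08, with 112 differences above 0 and 177 below. For 243 of the 275 genes that were not called, the 95% interval of the difference lay within a log2 value of 1 on either side of 0. The median over all probe sets was 0.01. Quantile normalization of the deposited values called 18 named genes, 7 higher and 11 lower, against 11 and 3, and 10 of the 18 were among the 14. Without both arrays with unusual spike-ins, 4 of the 14 were called, namely Ifit3, Socs1, Socs2 and Serpina3g.

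**Figure D1:**
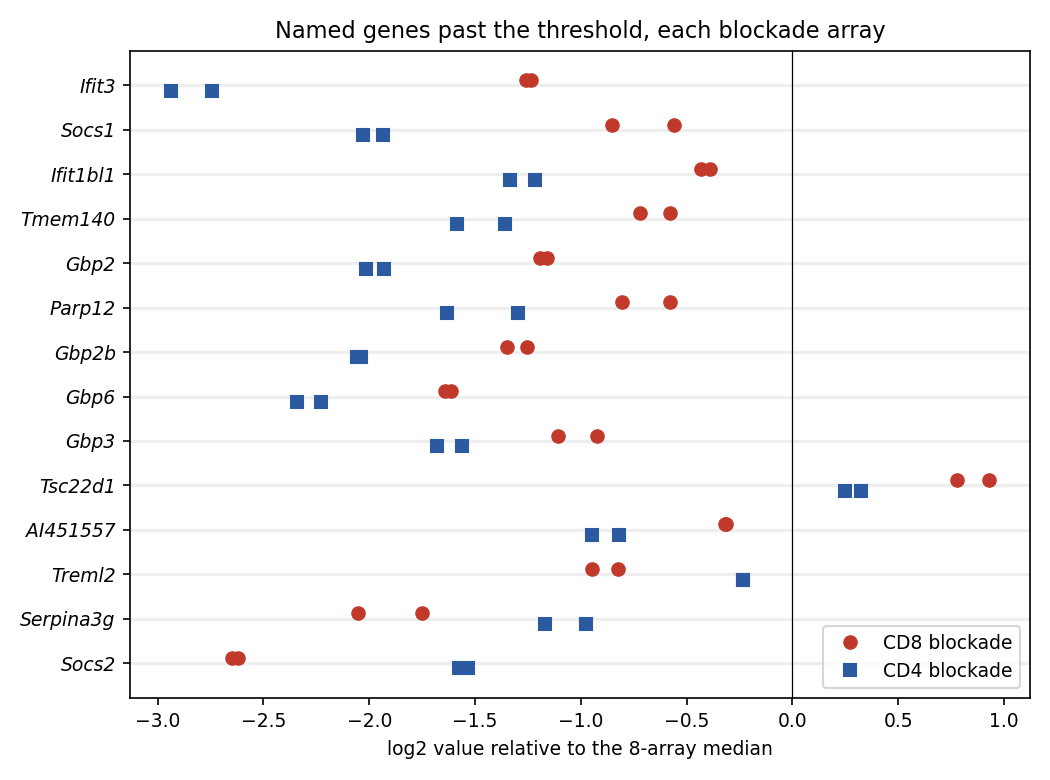
Log2 value relative to the 8-array median (horizontal axis) of the 14 called named genes on each of the 2 CD8 blockade arrays (red circles) and the 2 CD4 blockade arrays (blue squares). For Ifit3 the CD8 arrays lie at -1.24 and -1.26 and the CD4 arrays at -2.74 and -2.94, and in none of the 14 genes do the groups overlap.

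Ifit3, an interferon-induced antiviral protein of the tetratricopeptide repeat family, differed most among named genes. Its log2 values were -1.24 and -1.26 in CD8 blockade, against -2.74 and -2.94 in CD4 blockade. Both CD8 arrays lay far above both CD4 arrays, and the difference was 1.59 ± 0.10 (SE, 95% interval 1.36 to 1.82, adjusted p = 5.96e-05), or 3.01-fold. Its relative Ifit1bl1 had -0.39 and -0.43 in CD8 blockade, against -1.22 and -1.33 in CD4 blockade, a difference of 0.86 ± 0.11 (adjusted p = 0.00354). The Ifit family did not move as one. Ifit1 had -2.03 and -1.74 in CD8 blockade, against -1.55 and -1.55 in CD4 blockade, a difference of -0.33 ± 0.12 that was not past the threshold (adjusted p = 0.302). Ifit3 was called under all 15 alternative settings, with adjusted p between 6.09e-05 and 0.00857. Ifit1bl1 was lost in 1 of them, without both arrays with unusual spike-ins (adjusted p = 0.086).

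The guanylate-binding proteins are large interferon-induced GTPases that act against intracellular microbes. Of 6 named members, 4 were higher in CD8 cells and 2 were not past the threshold, and none had a negative difference. Gbp2 had -1.16 and -1.19 in CD8 blockade, against -2.01 and -1.93 in CD4 blockade, a difference of 0.80 ± 0.09 (adjusted p = 0.00284). Gbp2b had -1.25 and -1.35 in CD8 blockade, against -2.04 and -2.06 in CD4 blockade, a difference of 0.75 ± 0.09 (adjusted p = 0.00358). In both genes the replicates lay close together and the groups well apart. Gbp6 had -1.64 and -1.61 in CD8 blockade, against -2.23 and -2.34 in CD4 blockade, a difference of 0.66 ± 0.10 (adjusted p = 0.00883). Gbp3 had -1.11 and -0.92 in CD8 blockade, against -1.56 and -1.68 in CD4 blockade, a difference of 0.61 ± 0.10 (adjusted p = 0.0196). The other two members pointed the same way without a call: Gbp8 differed by 0.50 ± 0.16 (adjusted p = 0.235) and Gbp7 by 0.35 ± 0.09 (adjusted p = 0.133). Genes of this family have similar sequences, so a probe set may bind transcripts of more than 1 member. Without both arrays with unusual spike-ins none of the 4 stayed past the threshold, with adjusted p = 0.0652 for Gbp2, 0.0793 for Gbp2b, 0.0957 for Gbp3 and 0.107 for Gbp6. Gbp2 was called without any 1 of the 4 blockade arrays, and so was Gbp2b. Gbp6 was lost without CD8 blockade replicate 1 (0.0546), CD8 blockade replicate 2 (0.0509) or CD4 blockade replicate 2 (0.0876), and under quantile normalization its difference was 0.30 (adjusted p = 0.369), as that of Gbp2b was 0.53 (0.071). Gbp3 was lost without CD8 blockade replicate 2 (0.0934), CD4 blockade replicate 1 (0.075) or CD4 blockade replicate 2 (0.158). Fitting the 4 blockade arrays alone also lost Gbp3 (0.0954) and Gbp6 (0.0508).

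Among suppressors of cytokine signalling, which are induced by cytokines and damp their receptors, Socs1 and Socs2 differed in opposite directions. Socs1, which inhibits JAK kinases downstream of interferon and interleukin-2 receptors, had -0.56 and -0.85 in CD8 blockade, against -1.93 and -2.03 in CD4 blockade. Both CD8 arrays were higher, by 1.27 ± 0.14 (adjusted p = 0.00163), or 2.42-fold, and the gene was called under all 15 alternative settings (adjusted p from 0.000634 to 0.0355). Its 2 probe sets gave 1.42 and 1.13, and both were called. Socs2, a target of STAT5, had -2.65 and -2.62 in CD8 blockade, against -1.58 and -1.53 in CD4 blockade. Both CD8 arrays were lower, by a difference of -1.08 ± 0.17 (adjusted p = 0.0125), a level 2.11-fold higher in CD4 cells. Quantile normalization moved the difference to -1.84 (adjusted p = 0.000151). The 2 Socs2 probe sets disagreed in size, with -1.63 (called) and -0.53 (not called), and the averaged value was no longer past the threshold without CD8 blockade replicate 1 (0.0955), CD8 blockade replicate 2 (0.0632), CD4 blockade replicate 1 (0.0856) or CD4 blockade replicate 2 (0.106). Cish, a further STAT5 target that restrains receptor signalling, had -1.58 and -1.48 in CD8 blockade, against -0.98 and -0.61 in CD4 blockade, a difference of -0.74 ± 0.16 just outside the threshold (adjusted p = 0.0536).

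The list of interleukin-2 family receptors and STAT5 targets had 8 named members of 22, of which 1 was higher (Socs1), 1 lower (Socs2) and 6 not past the threshold, with a median of -0.07, against -0.08 for all named genes. Il2ra, which encodes CD25, a marker of activation and part of the interleukin-2 receptor, had -1.43 and -1.22 in CD8 blockade, against -0.873 and -0.997 in CD4 blockade. The CD8 arrays were the lower ones, but the difference of -0.39 ± 0.32 (95% interval -1.12 to 0.33, adjusted p = 0.70) was not past the threshold. Il15ra, which presents interleukin-15, differed by 0.42 ± 0.10 (adjusted p = 0.0971). Il7r, the receptor chain that keeps resting T cells alive, differed by 0.07 ± 0.09, and the survival factor Bcl2 by 0.00 ± 0.10.

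Other called genes had smaller differences. Tmem140 had -0.72 and -0.58 in CD8 blockade, against -1.59 and -1.36 in CD4 blockade, a difference of 0.82 ± 0.11 (adjusted p = 0.0055). Parp12, an interferon-induced ADP-ribosyltransferase, had -0.81 and -0.58 in CD8 blockade, against -1.63 and -1.30 in CD4 blockade, a difference of 0.77 ± 0.15 (adjusted p = 0.0375). These genes, like Ifit3 and the Gbp genes, lay below their 8-array median in both blockade groups, and further below it in CD4 cells. Tsc22d1, a transcription regulator of the TSC22 family, lay above it: 0.78 and 0.93 in CD8 blockade, against 0.25 and 0.32 in CD4 blockade, a difference of 0.57 ± 0.10 (adjusted p = 0.025). AI451557 differed by 0.57 ± 0.11 (adjusted p = 0.0348). Serpina3g, a serine protease inhibitor that also blocks cathepsins, had -1.75 and -2.05 in CD8 blockade, against -1.17 and -0.98 in CD4 blockade, a difference of -0.83 ± 0.13 (adjusted p = 0.014). Treml2, a cell surface receptor of the TREM family, had -0.95 and -0.82 in CD8 blockade, against -0.23 and -0.23 in CD4 blockade, a difference of -0.65 ± 0.11 (adjusted p = 0.0163).

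Several of these calls depended on single arrays or on the setting. Parp12 and AI451557 were called in 4 of 15 alternative settings each. A fit of the 4 blockade arrays alone lost Parp12 (adjusted p = 0.0994), AI451557 (0.0888), Tsc22d1 (0.0998), Serpina3g (0.0629) and Treml2 (0.0539). Quantile normalization lost Parp12 (0.0776) and AI451557 (0.0605), array weights lost them at 0.0524 and 0.0509, and the replicate block at 0.0617 and 0.063. Tmem140 was lost without CD4 blockade replicate 1 (adjusted p = 0.0521). Tsc22d1 was lost without CD8 blockade replicate 1 (0.0617) or replicate 2 (0.111) and without CD4 blockade replicate 1 (0.153) or replicate 2 (0.115). Parp12 was lost without CD8 blockade replicate 1 (0.0924) or 2 (0.155), CD4 blockade replicate 1 (0.205) or 2 (0.0544) and either CD4 untreated array (0.0833), and AI451557 without CD8 blockade replicate 1 (0.17) or 2 (0.115), CD4 blockade replicate 1 (0.196) or 2 (0.119) and either CD8 untreated array (0.0623). Serpina3g was lost without CD8 blockade replicate 2 (0.0691), CD4 blockade replicate 1 (0.0517) or CD4 blockade replicate 2 (0.13). Treml2 was lost without CD8 blockade replicate 1 (0.121), CD4 blockade replicate 1 (0.103) or CD4 blockade replicate 2 (0.115). No sign turned in these fits. The genes nearest to the threshold on its other side were Scin, an actin-severing protein (-0.73 ± 0.15, adjusted p = 0.0504), Tdgf1, a co-receptor of Nodal (1.05 ± 0.22, adjusted p = 0.0527), Cish, Il15ra and Isg20.

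The interferon lists as a whole were mixed. Of 60 type I interferon response genes 26 were named, and 2 were higher in CD8 cells (Ifit3 and Parp12), 0 lower and 24 not past the threshold. By limma with no adjustment, 69 of the 289 named genes, in this list or outside it, had p under 0.05, and 5361 of all 45037 probe sets did. The median of the type I list was 0.09, and its differences ran from -0.77 to 1.59, with 17 above 0 and 9 below. Ifitm3, an antiviral membrane protein, had the lowest, with -1.79 and -1.29 in CD8 blockade, against -0.97 and -0.58 in CD4 blockade, a difference of -0.77 ± 0.27 (adjusted p = 0.285). Isg20, an interferon-induced exonuclease, differed by -0.50 ± 0.13 (adjusted p = 0.123). Of 38 interferon-gamma response genes 20 were named, and 4 were higher (Gbp2, Gbp3, Gbp6 and Socs1), 1 lower (Serpina3g) and 15 not past the threshold, with a median of 0.23. The immunity-related GTPases, close partners of the Gbp proteins, were not among the called ones: Irgm1 differed by 0.22 ± 0.11, Irgm2 by -0.08 ± 0.10, Igtp by -0.04 ± 0.09 and Iigp1 by -0.34 ± 0.11. Under quantile normalization Iigp1 was called lower, at -1.67 (adjusted p = 0.000108). Irf1, an interferon-induced transcription factor, differed by 0.31 and was not past the threshold.

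**Figure D2:**
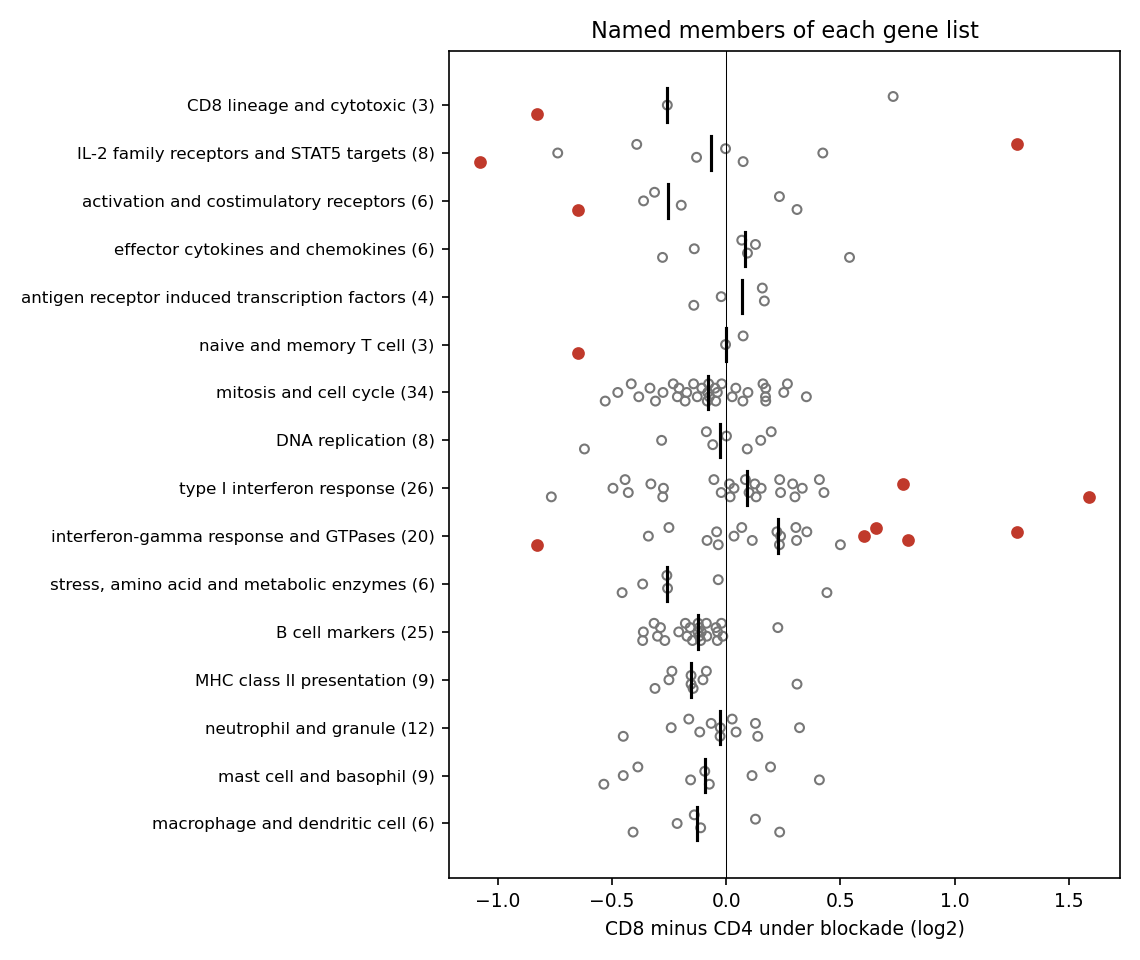
CD8 minus CD4 difference under blockade (log2, horizontal axis) of each named member of 16 gene lists, with the number of named members in parentheses. Filled red points passed the threshold, open points did not, and the black bar is the list's median, which is 0.23 for the interferon-gamma list and -0.12 for the B cell list.

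The interferon core motif was searched in the 250 bases before each start with a RefSeq promoter entry, and a gene counted when any of its entries matched. It was found in 7 of the 9 higher genes that had an entry (77.8%), namely Ifit3, Socs1, Ifit1bl1, Tmem140, Gbp2, Gbp2b and Gbp3. Parp12 and Tsc22d1 had no match in any entry, and Gbp6 and AI451557 had no entry. Of the lower genes, Serpina3g alone had an entry, without a match. The motif stood in 22 of 218 other named genes (10.1%), in 11 of 27 named members of the interferon lists that were not called (40.7%), and in 936 of 27025 genes of the RefSeq table (3.46%). The 9 higher genes had 15 entries, against 273 for the 218, 31 for the 27 and 32851 for the 27025. More entries per gene give more places for a match, and the shares were not adjusted for that.

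Genes of cytotoxic function could hardly be followed, since only 3 of 34 were named. Gzmb, granzyme B, the protease that killer cells inject into their targets, had -2.15 and -2.44 in CD8 blockade, against -2.51 and -3.55 in CD4 blockade. The CD8 arrays lay above the CD4 arrays, whose own values were far apart, and the difference of 0.73 ± 0.34 (95% interval -0.035 to 1.498, adjusted p = 0.443) was not past the threshold. Serpinb6b, a protease inhibitor, differed by -0.26 and was not called. Serpina3g, at -0.83, was the called member and was lower in CD8 cells, and the list's median was -0.26. Among 6 named activation and costimulatory receptors of 27, 1 was lower (Treml2) and 5 were not past the threshold, with a median of -0.25. Cd69, an early activation marker, differed by -0.36 ± 0.15 (adjusted p = 0.405), and Tfrc, the transferrin receptor of dividing cells, by -0.31 ± 0.22. Tnfrsf9, the costimulatory receptor CD137, differed by -0.20 ± 0.17 as an average of 2 probe sets that disagreed, at -0.77 and 0.38, and neither was called.

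Cytokine and early response genes showed no called difference under blockade. Of 28 effector cytokines and chemokines 6 were named. Ccl3, a chemokine of activated T cells, had -0.72 and -0.88 in CD8 blockade, against -1.46 and -1.22 in CD4 blockade, a difference of 0.54 ± 0.16 (adjusted p = 0.206). Csf2, the growth factor GM-CSF, differed by 0.09 ± 0.13, and Penk, the enkephalin precursor, by -0.28 ± 0.22. The 4 named transcription factors induced by the antigen receptor lay close to 0: Egr2 differed by -0.14 ± 0.17, Nr4a2 by 0.16 ± 0.25, Nr4a3 by 0.17 ± 0.20 and Egr1 by -0.02.

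No named proliferation gene was called between the subsets, which with 2 arrays a group does not show that their levels were alike. Of 64 mitosis and cell cycle genes 34 were named, 0 were called in limma, 11 differences were above 0 and 23 below, and the median was -0.08, the same as for all named genes. Mki67, a marker of cycling cells, had -1.18 and -1.20 in CD8 blockade, against -0.92 and -0.79 in CD4 blockade, a difference of -0.33 ± 0.17 (adjusted p = 0.506). Top2a, the topoisomerase of dividing cells, had -1.51 and -1.22 in CD8 blockade, against -0.86 and -0.93 in CD4 blockade, a difference of -0.47 ± 0.19 (adjusted p = 0.359). For 29 of the 34 the 95% interval lay within a log2 value of 1 of 0. Ccnd2, cyclin D2, differed by -0.53 and Kif11, a spindle motor, by -0.42, neither past the threshold. Of 32 DNA replication genes 8 were named and 0 called, with a median of -0.03. Rrm2, a ribonucleotide reductase subunit, had the lowest difference, -0.62 ± 0.24 (adjusted p = 0.334). Of 50 stress, amino acid and metabolic genes 6 were named and 0 called, with a median of -0.26, and Idi1 and Hk2 marked their range at -0.46 and 0.44. Of 18 naive and memory T cell genes 3 were named, and 1 (Treml2) was lower.

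Markers of other cell types were also set against each other, because a sort can carry them. The median of the 25 named B cell genes of 47 was 0.68 and 0.62 in CD8 blockade, against 0.89 and 0.74 in CD4 blockade. None of the 25 was called in limma, but 24 of the 25 differences were negative, with a median of -0.12 and a range from -0.37 to 0.23. The list is not made of genes confined to B cells. Its lowest value, -0.37, was that of the lipid enzyme Scd1, and it also holds Bcar3, Syk and Mef2c. Cd74 is a member both here and in the MHC class II list. 12 of the 25 had both CD8 arrays below both CD4 arrays, as did 102 of all 289 named genes and 19.9% of all probe sets, and 177 of the 289 differences were negative. Cd22, a B cell inhibitory receptor, differed by -0.27 ± 0.10 (adjusted p = 0.342) and Cr2, a complement receptor, by -0.11 ± 0.15. The median of the 9 named genes of MHC class II presentation was 0.63 and 0.62 in CD8 blockade, against 0.86 and 0.75 in CD4 blockade, and 8 of 9 differences were negative. H2-Ab1, a class II chain, differed by -0.15 ± 0.11 and was not called. Since levels are not given, it cannot be said which of these markers were near 0 in the sorted cells, and the part of such cells in the called differences was not tested.

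Of the 12 named neutrophil and granule genes, 9 mast cell and basophil genes and 6 macrophage and dendritic cell genes, 0 were called, and their medians were -0.03, -0.09 and -0.13. These lists are not separate or pure: Mcpt8 is in both of the first, and members such as Ifitm1, Il6 and Bst2 are not confined to these cells. The neutrophil median was -1.06 and -1.25 in CD8 blockade, against -0.95 and -1.25 in CD4 blockade, and the mast cell and basophil median was -1.29 and -1.10 in CD8 blockade, against -1.29 and -1.54 in CD4 blockade. S100a8, an abundant neutrophil protein, differed by -0.07 ± 0.34 and Mpo, myeloperoxidase, by -0.16 ± 0.13. Cpa3, the mast cell carboxypeptidase, differed by -0.39 ± 0.20 and Apoe, apolipoprotein E, by -0.11 ± 0.13. Crisp3, a secreted protein that is in none of these lists, differed by -0.25 ± 0.18. Under quantile normalization Cpa3, Crisp3 and Penk were called lower, at -1.26, -0.79 and -0.94.

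To ask which subset differences belonged to blockade, the same contrast was taken in the untreated arrays, which share no array with it but share the fit's estimate of spread. Without treatment, 1130 of 45037 probe sets (2.51%) were called, 485 higher (1.08%) and 645 lower (1.43%) in CD8 cells. Both contrasts called 672 probe sets in the same direction, which is 68.0% of the 988 and 59.5% of the 1130, and 4 in opposite directions. Of the 109 probe sets called under blockade with a difference of at least log2 2, 105 were called in the same direction without treatment. Over all 45037 probe sets the differences correlated at Pearson r = 0.68, and over the 289 named genes at 0.37, as a description of features that share arrays. The large differences between CD8 and CD4 cells were thus mostly present with and without blockade.

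**Figure D3:**
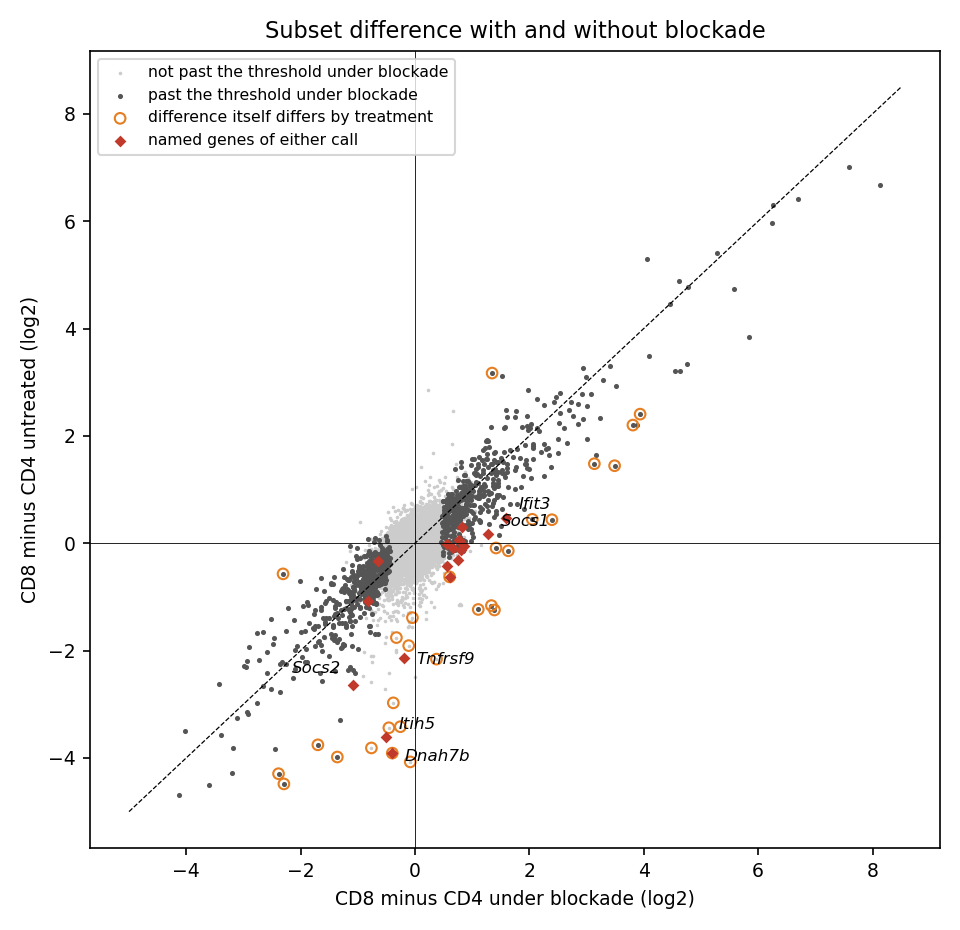
CD8 minus CD4 difference under blockade (log2, horizontal axis) and without treatment (log2, vertical axis) for the 45037 probe sets, with named genes called in either the blockade contrast or the test of the difference as red diamonds and the line of equal values dashed. Most probe sets called under blockade lie near the line, and Dnah7b, Itih5 and Tnfrsf9 lie far below it, closer to 0 under blockade than without treatment.

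Among named genes, 32 of the 289 were called without treatment, 6 higher and 26 lower in CD8 cells, against 11 and 3 under blockade. Of all probe sets, 1.08% were called higher and 1.43% lower without treatment. Quantile normalization called 10 named genes higher and 21 lower without treatment, against 7 and 11 under blockade. Without that step, Ifit3, Socs2 and Serpina3g were called in the same direction in both contrasts, and Gbp3 in opposite directions. The other 10 genes called under blockade were not called without treatment. Ifit3 had 1.76 and 1.72 in CD8 untreated, against 1.29 and 1.24 in CD4 untreated, a difference of 0.48 ± 0.10 with an adjusted p of 0.0493, which was past the threshold in only 2 of its 15 alternative settings. Socs1 had 0.99 and 0.77 in CD8 untreated, against 0.82 and 0.60 in CD4 untreated, a difference of 0.16 ± 0.14 (adjusted p = 0.766). Gbp2 had 1.24 and 1.16 in CD8 untreated, against 1.38 and 1.27 in CD4 untreated, a difference of -0.12 ± 0.09 (adjusted p = 0.737). Socs2 had 1.53 and 1.62 in CD8 untreated, against 3.93 and 4.51 in CD4 untreated, a difference of -2.64 ± 0.17 that was called in all 15 alternative settings.

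Whether the subset difference itself differed with treatment was tested by an interaction term. 28 of 45037 probe sets (0.0622%) passed, 26 (0.0577%) with a more positive difference under blockade and 2 (0.00444%) with a more negative one, and 18 of the 28 were also called under blockade. Quantile normalization gave 19, of which 15 were more positive and 4 more negative. Among named genes 4 passed, all more positive under blockade: Dnah7b, Itih5, Tnfrsf9 and Gbp3. In Dnah7b, Itih5 and Tnfrsf9 the CD8 untreated arrays lay far below the CD4 untreated arrays.

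Dnah7b, an axonemal dynein heavy chain, had -0.89 and -0.84 in CD8 blockade, against -0.34 and -0.59 in CD4 blockade, and 0.55 and 0.34 in CD8 untreated, against 4.00 and 4.71 in CD4 untreated. The 2 CD4 untreated arrays stood far above the other 6. The difference was -0.40 under blockade and -3.91 without treatment, and these differed by 3.51 ± 0.29 (adjusted p = 0.0076). Itih5, a chain of the inter-alpha-trypsin inhibitor family, differed by -0.51 under blockade and -3.62 without treatment, 3.11 ± 0.21 apart (adjusted p = 0.00305). Tnfrsf9 differed by -0.20 and -2.13, 1.94 ± 0.23 apart (adjusted p = 0.0435). Its 2 probe sets disagreed under blockade, at -0.77 and 0.38.

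Gbp3 differed in opposite directions with and without blockade, although its interaction was called in 3 of 14 alternative settings and its untreated difference in 9 of 15. It had -1.11 and -0.92 in CD8 blockade, against -1.56 and -1.68 in CD4 blockade, and 0.95 and 0.92 in CD8 untreated, against 1.53 and 1.60 in CD4 untreated. CD8 arrays were the higher ones under blockade and the lower ones without it, with differences of 0.61 and -0.63 that lay 1.23 ± 0.15 apart (adjusted p = 0.0413). Under quantile normalization the untreated difference was -0.26 (adjusted p = 0.344) and the interaction 0.75 (0.317). The other called genes did not pass this test: the treatments differed by 1.11 ± 0.14 for Ifit3 (adjusted p = 0.0543), by 1.05 ± 0.13 for Gbp2b (0.0542), by 0.92 ± 0.13 for Gbp2 (0.0897), by 0.99 ± 0.14 for Tsc22d1 (0.0897), by 1.56 ± 0.24 for Socs2 (0.109) and by 1.11 ± 0.19 for Socs1 (0.205). One of the 2 Socs1 probe sets passed by itself, at 1.51 (adjusted p = 0.0138), and the other did not, at 0.71 (adjusted p = 0.973). Ifit3 and Socs2 were called in both treatments. For Gbp2b, Gbp2, Tsc22d1 and Socs1, called under blockade and not without it, a dependence on treatment is therefore not shown.

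The interaction calls depended on the arrays and on the setting. Without both arrays with unusual spike-ins none of the probe sets stayed past the threshold in limma. In limma's fit of all 8 arrays 2253 of 45037 probe sets had an unadjusted p under 0.05, about the share that no difference would give over the whole array. Of the 289 named genes, which were selected for a change with treatment, 64 had an unadjusted p under 0.05 in that fit. Itih5 was called without each single array and lost only when both unusual arrays were left out (adjusted p = 0.145). Dnah7b was lost without CD8 blockade replicate 1 (0.062) or 2 (0.0695) and CD4 blockade replicate 1 (0.0661) or 2 (0.0823). Tnfrsf9 was lost without each single array but CD4 untreated replicate 1, with adjusted p from 0.106 to 0.225, and Gbp3 without each single array, with adjusted p from 0.0933 to 0.257. Quantile normalization moved Tnfrsf9 to 1.06 (adjusted p = 0.177) and Gbp3 to 0.75 (0.317). The replicate block lost both (0.0723 for Tnfrsf9 and 0.0754 for Gbp3), and array weights lost Tnfrsf9 (0.0536).

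**Figure D4:**
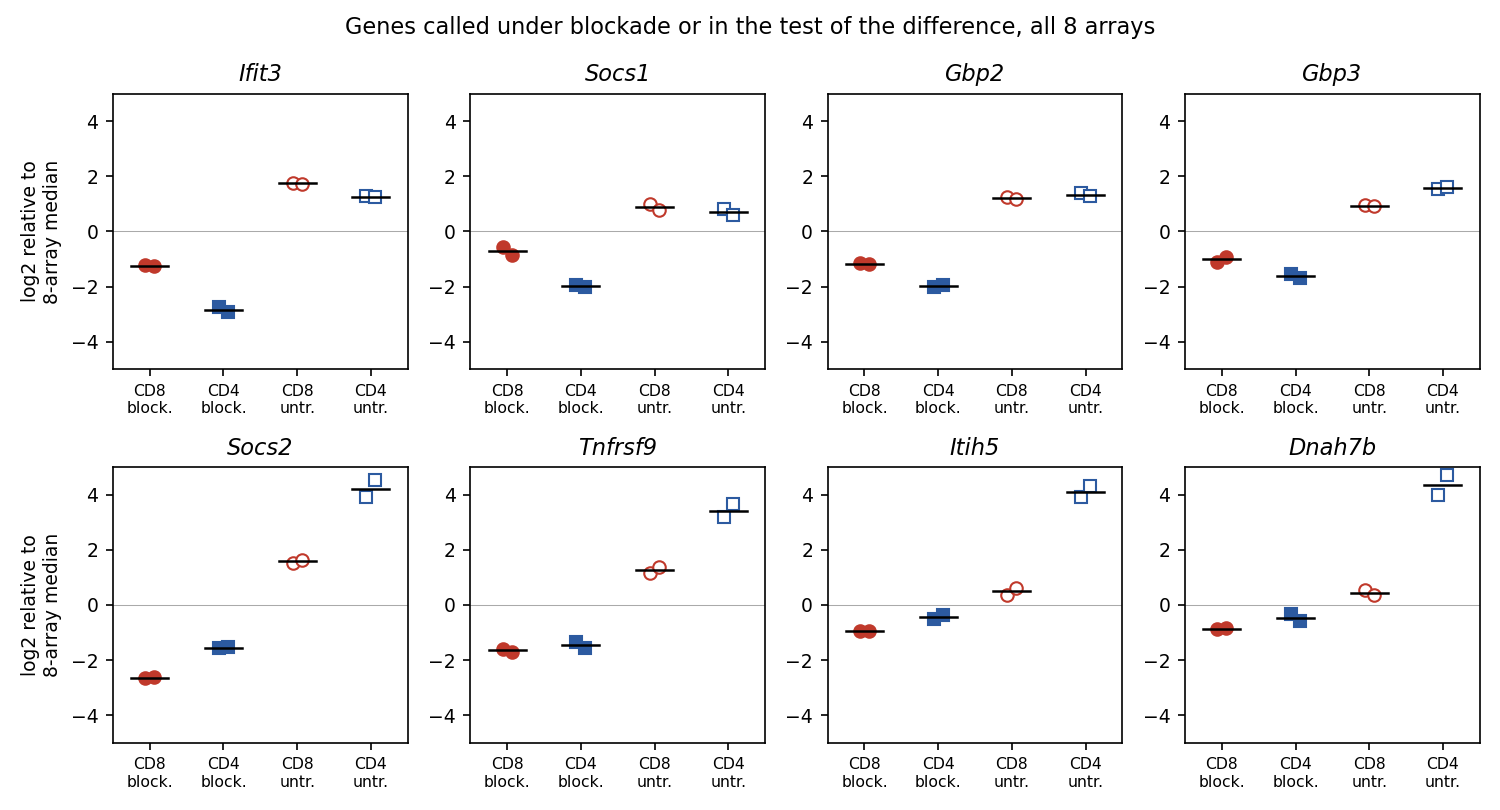
Log2 value relative to the 8-array median (vertical axis) of 8 named genes on each array, with blockade groups filled, untreated groups open, CD8 as red circles, CD4 as blue squares, and bars at the group means. Dnah7b, Itih5, Tnfrsf9 and Socs2 have CD4 untreated arrays far above the other groups, and Gbp3 has CD8 above CD4 under blockade and below it without treatment.

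Several genes with a called difference without treatment had a difference of smaller size under blockade, but the difference between treatments did not pass. Il2ra differed by -0.39 ± 0.32 under blockade and by -2.21 ± 0.32 without treatment (adjusted p = 0.00719), and the interaction of 1.81 ± 0.45 was not past the threshold (adjusted p = 0.59). Cish differed by -0.74 and -2.10, with an interaction of 1.37 ± 0.22 (adjusted p = 0.136). Ifitm3 differed by -0.77 and -2.58, with an interaction of 1.82 ± 0.38 (adjusted p = 0.372). Csf2 differed by 0.09 and -0.77, Ifit1 by -0.33 and -0.60, and Ccl3 by 0.54 and 0.97, where the untreated values were called and the interactions were not.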

How the data were processed

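RNA of sorted T cells was hybridized to 8 Affymetrix mouse arrays. The authors deposited log2 values centred on the median of each row. The base is assumed, and the methods of summary and normalization are not stated there. Centring removes signal levels, so no dim-probe filter, intensity trend or detection call could be used. The table held 45101 probe sets, 64 of them controls. Per the file headers, the authors' deposited list of 409 probe sets came from an unpaired test. Names came from that list: 375 probe sets had 1 gene, 22 several and 12 none. For 369 the Entrez identifier matched RefSeq (GRCm38.p6), and 33 symbols were updated (Gbp6 is Mpa2l, Gbp7 is Gbp6 and Gbp2b is Gbp1 in the list). The listed probe sets were averaged for each of 62 of the 289 genes with more than 1, which left 44951 features. limma 3.58.1 in R 4.3.3 fitted 1 mean per group over 8 arrays with eBayes (4 residual and 4.46 prior degrees of freedom), with two-sided p-values adjusted by Benjamini-Hochberg over all features at a threshold of 0.05, and was tested on simulated data. Precision is limited by the number of arrays. The labels do not say whether same-numbered arrays of different groups came from the same cultures or mice.

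Named were up to 15 called genes in each direction without overlap of arrays, up to 6 in each direction by the interaction, up to 4 examples per list and 27 genes to be given whatever their value; the genes just outside the threshold, the Gbp and immunity-related GTPases, Irf1, Egr1, Il15ra, Bcl2 and Tfrc were added after their values were seen. The members and lists were chosen with earlier results of these data known. Alternatives were the 4 arrays of a contrast alone, quantile normalization, centring of arrays, array weights, robust eBayes, a replicate block, each array left out, single probe sets and, chosen after seeing the data, both arrays with unusual spike-ins left out. Quantile normalization was applied to values already centred on the median of each row. It thus made the distribution of these deviations the same on all arrays, and not that of signal levels. With 1 array left in a group, that array is assumed to vary like the others.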

Additional observations from a re-analysis of the deposited data

Results flagged for a closer look

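The CD8 minus CD4 difference itself differed between blockade and untreated cultures for 28 of 45037 probe sets by an interaction term in limma. Among named genes, it was higher under blockade by 3.51 for Dnah7b, by 3.11 for Itih5, by 1.94 for Tnfrsf9 and by 1.23 for Gbp3 (log2). In CD4 cells these 4 genes averaged -0.47, -0.44, -1.45 and -1.62 with blockade and 4.36, 4.11, 3.41 and 1.56 without it. In CD8 cells they averaged -0.87, -0.94, -1.65 and -1.01 with blockade and 0.45, 0.49, 1.28 and 0.94 without it. Tnfrsf9 is an average of 2 probe sets whose differences disagreed under blockade, at -0.77 and 0.38. Groups of 2 arrays were too small to look for a single outlying array.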

How the results depend on the processing

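The counts of called features moved most with the arrays in the fit. Under blockade 988 probe sets and 14 named genes became 632 and 9 in the 4 blockade arrays alone, 506 to 882 and 6 to 15 when 1 array was left out, and 391 and 4 with both arrays of unusual spike-ins left out. The 1130 untreated calls became 560 to 1075 with 1 array left out and 466 without both. The interaction's 28 probe sets and 4 named genes became 5 to 26 and 1 to 5 with 1 array left out, and 0 and 0 without both, where 2130 probe sets and 70 named genes had an unadjusted p under 0.05. In limma's fit of all 8 arrays 2253 of 45037 probe sets and 64 of the 289 named genes had an unadjusted p under 0.05 for the interaction. The former is about the share that no difference would give over the whole array, and the named genes were selected for a change with treatment. Fewer arrays leave fewer residual degrees of freedom, and no further cause was tested. With the replicate number as a replicate block the counts were 911 and 14 under blockade, 1024 untreated, and 26 and 3 for the interaction. Deviations of same-numbered arrays correlated between -0.03 and 0.08 over all probe sets. Such a correlation cannot decide whether these arrays share a culture or mice, which the labels do not say. Of 1241 values of single genes under the alternatives, 1111 kept direction and side of the threshold, 27 changed sign while past the threshold in neither setting, 86 lost and 17 gained a call, and 0 called values turned direction. Single probe sets gave 13 genes under blockade and 3 for the interaction. A filter on dim probe sets was not possible with centred values.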
